A study of Mus musculus with 7 samples.

Results

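The histone H3 lysine 36 (H3K36) methyltransferases of the mouse were examined in single fully grown oocytes with and without the H3K4 methyltransferase gene Setd1b. The set holds 5 genes chosen by name: Setd2, Nsd1, Nsd2, Nsd3 and Ash1l. In a table with 33437 oocyte transcripts, 4 of the 5 genes were found by the gene name that the table gives on the transcript's own strand, each with 1 transcript. No transcript carried the name Ash1l. The transcript over the Ash1l gene is named in the table for Dap3, a gene on the opposite strand, and it was taken as Ash1l by its position after the table had been seen.

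Setd1b cKO oocytes came from females that were floxed/floxed for Setd1b and Gdf9-Cre positive (4 libraries), and Setd1b WT oocytes from floxed/floxed females that were Gdf9-Cre negative (3 libraries). All females were 21 days old and of the strain given in the labels as C57BL6, with the substrain C57BL/6OlaHsd in the methods. By the labels, floxed alleles were common to both groups and Cre was present in the cKO group alone. The methods differ from the labels here, since they also count heterozygous Cre-carrying females as WT. The Gdf9 promoter drives Cre in oocytes from early follicle growth, and the somatic cells of the ovary keep Setd1b. Each library was made from 1 germinal vesicle (GV) oocyte, an immature oocyte with an intact nucleus. The labels do not tie the oocytes to separate females, so p-values measure the spread between these oocytes.

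Enzymes of this family carry a SET domain, which transfers methyl groups to lysine. SETD2 travels with elongating RNA polymerase II and is the main enzyme that adds the third methyl group to H3K36 over gene bodies, whereas the NSD enzymes and ASH1L make the monomethylated and dimethylated forms. In growing oocytes, H3K36 trimethylation over transcribed genes helps to guide DNA methylation by DNMT3A.

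The catalytic core that makes these genes a family is shown as the 60 coding bases around its conserved motif of asparagine, histidine, serine or cysteine, and cysteine, with the 12 bases of the motif in capitals. The bases were read 5′ to 3′ from the longest coding transcript of each gene in GENCODE M21 (build GRCm38, plus strand), and each stretch lay within 1 coding exon. The search in the translated coding sequence also required any 1 residue, proline and asparagine after the motif. This longer pattern occurred 1 time in each gene.
Setd2 (chr9:110562955-110563014, exon 7): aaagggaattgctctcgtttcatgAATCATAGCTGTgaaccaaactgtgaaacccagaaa
Nsd1 (chr13:55302863-55302922, exon 20): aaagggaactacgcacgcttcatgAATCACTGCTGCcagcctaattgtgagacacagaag
Nsd2 (chr5:33891530-33891589, exon 18): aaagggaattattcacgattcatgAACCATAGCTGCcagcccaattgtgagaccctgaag
Nsd3 (chr8:25709087-25709146, exon 20): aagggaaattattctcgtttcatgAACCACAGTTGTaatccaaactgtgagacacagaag
Ash1l (chr3:89043582-89043641, exon 11): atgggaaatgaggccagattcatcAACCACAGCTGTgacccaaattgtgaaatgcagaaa
Over these 60 bases Nsd1 and Nsd2 were the most alike pair, with 83.3% identical bases. Ash1l was the farthest from the others, with 66.7% identity to Nsd1 and 73.3% to Nsd3. Setd2 shared 71.7% to 80.0% of the bases with the other members.

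Levels are given in RPM, which sets each transcript against the total of mapped reads in its library. The libraries held 8582493 to 12972366 mapped reads, of which 13.2% to 16.4% lay outside the transcripts in cKO and 9.57% to 9.90% in WT. Of 12 oocyte markers 11 were in the table and all 11 were detected in every library, summing to 20075 to 23427 RPM in cKO and 23325 to 26975 RPM in WT. All 14 markers of granulosa cells, which surround the oocyte, were in the table and summed to 119 to 282 RPM in cKO and 89.9 to 272 RPM in WT, with 5 to 10 of them above 3 reads. Most of that sum came from Serpine2, Nr5a2 and Cyp19a1, while Amh, Foxl2 and Gatm did not exceed 2 reads in any library. Others of the list were detected, among them Inha at 7.03, 11.4, 13.2 and 0.583 RPM in cKO and 0.810, 4.32 and 0 RPM in WT (log2 fold change 1.70, unadjusted p = 0.0477, adjusted p = 0.225, limma), and Fshr and Gja1 at up to 5.15 and 5.14 RPM. The part of these markers in the member values was not tested. The labels give no sequencing batch. Setd1b itself, matched by position, measured 8.31, 16.7, 12.8 and 2.68 RPM in cKO and 17.7, 16.3 and 8.61 RPM in WT. The genotypes overlapped (adjusted p = 0.533, limma), so the Setd1b level over the whole transcript did not check the genotype labels, and the position of the deleted part was not used here. The libraries cKO 4 and WT 3 stood apart from the others of their genotype in the same direction (correlation of their deviations across transcripts 0.61), with Zp2, a protein of the egg coat, at 751 RPM in cKO 4 and 1033 RPM in WT 3 against 2307 to 3201 RPM in the other 5 libraries. Of the 11 oocyte markers 8 were lowest of their genotype in both, while 2 were highest in both, Zp3 at 4234 and 4891 RPM and Dppa3 at 10654 and 10362 RPM. The fold change of each member is therefore given with and without them.

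Genotypes were compared with limma on log2(RPM + 1), and a transcript was called where the p, adjusted by Benjamini-Hochberg, was below 0.05 and the levels differed over 2-fold. All 5 members passed the filter of at least 1 RPM in at least 3 libraries, and 0 of 5 were called, against 5.71% of all 18179 transcripts tested. At an unadjusted p under 0.05 there was 1 member, Nsd1, against 21.7% of all transcripts (7.52% in the same direction). The genotypes did not overlap for 1 of the 5, again Nsd1, where 20.3% of all transcripts tested had no overlap. The median log2 fold change of the members was -0.07, beside 0.12 for all transcripts tested.

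Nsd1, which makes dimethylated H3K36 over broad domains, had the largest difference between genotypes of the 5 members. Its transcript spans chr13:55209782-55318625. Nsd1 measured 199, 182 and 107 RPM in the 3 WT oocytes. In the 4 cKO oocytes it measured 89.7, 99.5, 95.1 and 36.2 RPM. Every cKO oocyte lay below every WT oocyte, with cKO 4 far below the other cKO oocytes and WT 3 nearest to them. Of all transcripts tested, 7.14% had every cKO library below every WT library. The mean was 80.1 ± 29.5 RPM in cKO (SD, n = 4) and 163 ± 49.0 RPM in WT (SD, n = 3), so the cKO mean was 49.2% of the WT mean. The log2 fold change was -1.07 (SE 0.37, 95% interval -1.88 to -0.26), with an adjusted p of 0.116, which did not pass the threshold. Of all transcripts tested, 3.55% had a log2 fold change under -1 and 3.02% one lower than that of Nsd1. Scaled to the reads within transcripts, whose share differed between genotypes, it was -0.99.

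**Figure D1:**
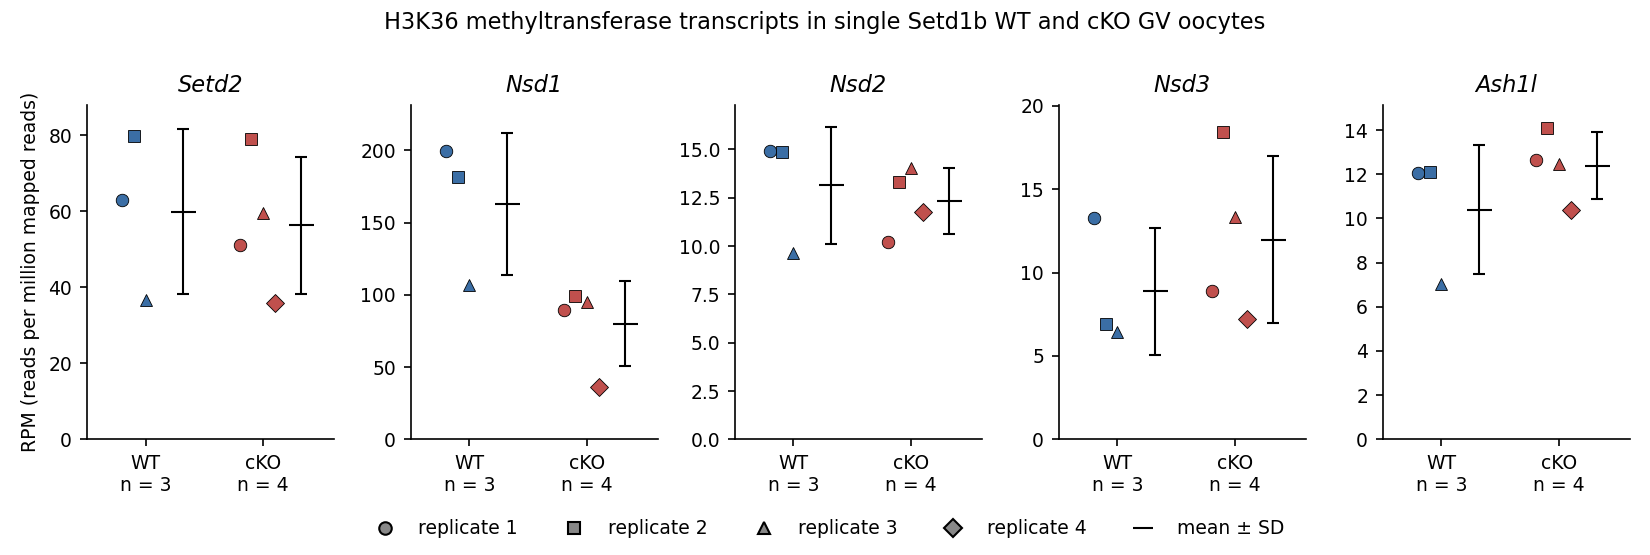
Level of each member in RPM (vertical axes, each starting at 0 with its own range) in the 3 WT (blue) and 4 cKO (red) oocytes. Marker shapes give the replicate number and the bars the mean ± SD. The 4 cKO values of Nsd1, from 36.2 to 99.5 RPM, lie below all 3 WT values, and for the other 4 members the genotypes overlap.

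The Nsd1 difference depended on the oocytes that stood apart. Without cKO 4 the log2 fold change was -0.73 (adjusted p = 0.0974, limma), and without WT 3 it was -1.34 (adjusted p = 0.0753). A setting added after the data were seen left out both cKO 4 and WT 3. There the log2 fold change was -1.001 and passed the threshold (adjusted p = 0.00317, limma), just past the 2-fold limit. In that setting 1029 transcripts were called higher and 498 lower of 17208 tested. Weights that let limma give less influence to libraries of high spread also led to a call for Nsd1, with a log2 fold change of -1.002 and an adjusted p of 0.0238, where 9.63% of all transcripts were called and 3.05% were called lower. Over the 24 alternatives run the log2 fold change ranged from -1.34 to -0.73, with adjusted p from 0.00317 to 0.324 (limma). As every cKO value lay below every WT value, leaving out libraries or changing the pseudocount could not turn its sign.

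**Figure D2:**
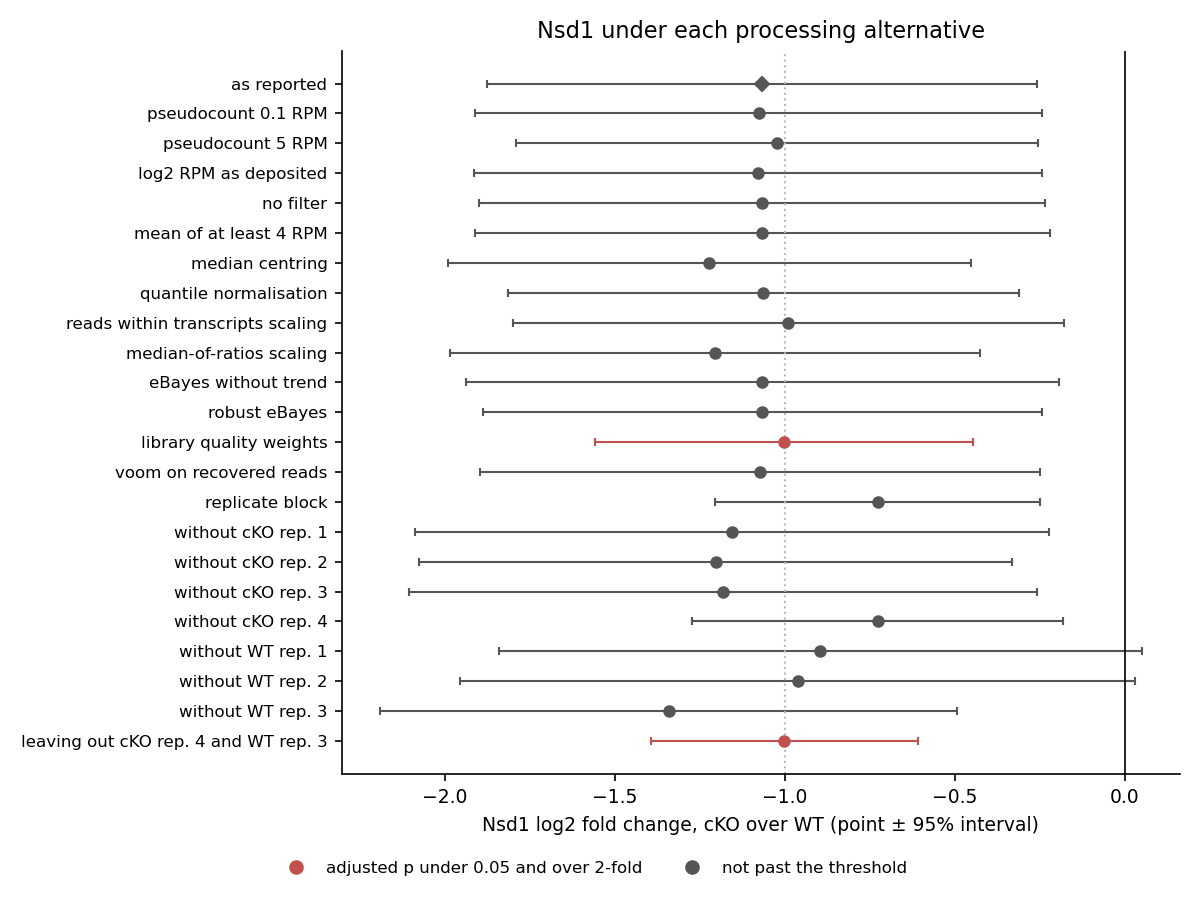
Log2 fold change of Nsd1, cKO over WT (horizontal axis, points with 95% intervals), for the values as reported and for each alternative in filter, scaling, model or libraries (rows). Red points pass the threshold, which happened with library quality weights and with cKO 4 and WT 3 left out, and the points range from -1.34 to -0.73.

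Ratios between members within 1 oocyte do not depend on how the libraries were scaled, and Nsd1 was lower relative to each other member in every cKO oocyte than in any WT oocyte. For 1 read of Setd2 there were 1.75, 1.26, 1.59 and 1.01 reads of Nsd1 in the cKO oocytes and 3.16, 2.28 and 2.91 in the WT oocytes. The ratio of Nsd1 to Ash1l was 3.49 to 7.64 in cKO and 15.0 to 16.5 in WT. Against Nsd2 it was 3.08 to 8.80 in cKO and 11.1 to 13.4 in WT, and against Nsd3 5.02 to 10.1 in cKO and 15.0 to 26.2 in WT. These 4 ratios share Nsd1 and are a description without a test. Nsd1 was as clearly separated against 45.9% of the 17478 other tested transcripts that had reads in all 7 libraries, so the separation is not particular to the other members. Of the 6 pairs without Nsd1, Nsd2 over Ash1l also did not overlap, at 0.805 to 1.13 in cKO and 1.23 to 1.37 in WT. Ratios to the same 17478 transcripts did not overlap between genotypes in 15.9% for Nsd2 and 17.2% for Ash1l. Nsd1 made up 45.2% ± 7.05 of the reads of the 5 members in cKO (SD, n = 4) and 63.8% ± 2.20 in WT (SD, n = 3). The summed level of the 5 members was 173 ± 52.4 RPM in cKO and 255 ± 76.4 RPM in WT.

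**Figure D3:**
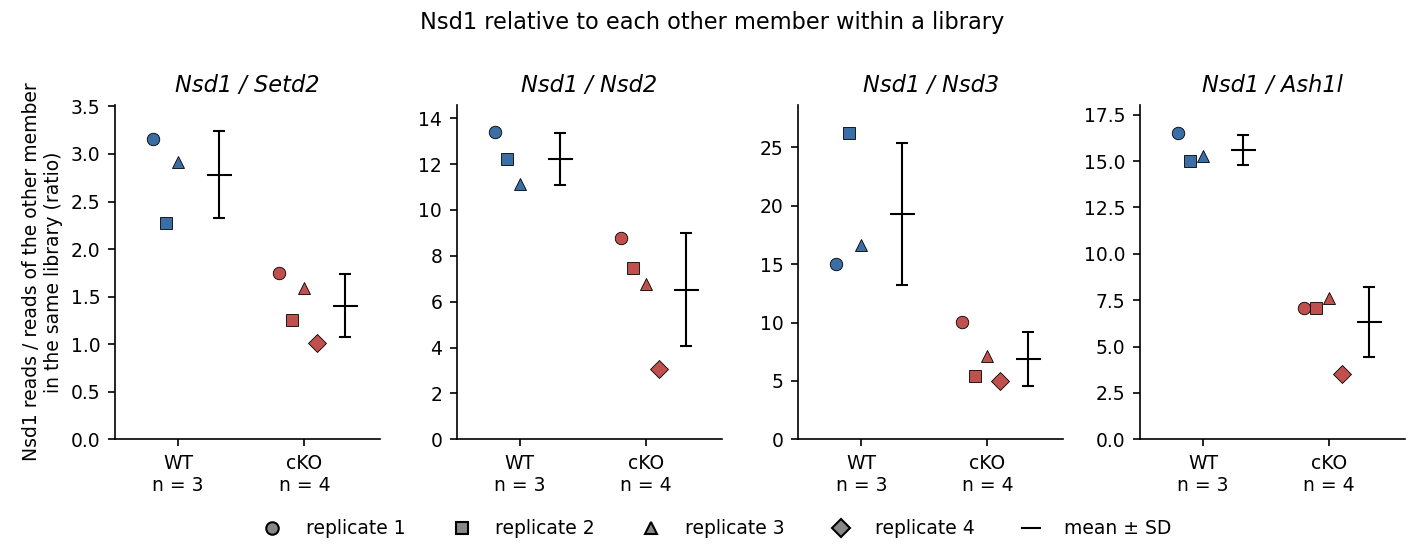
Reads of Nsd1 divided by the reads of Setd2, Nsd2, Nsd3 or Ash1l in the same oocyte (vertical axes, starting at 0), for WT (blue) and cKO (red). Bars give the mean ± SD. In all 4 panels each cKO oocyte lies below each WT oocyte, for example at 1.01 to 1.75 against 2.28 to 3.16 for Nsd1 over Setd2.

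Setd2, the H3K36 trimethylase, did not separate the genotypes. It measured 63.1, 79.9 and 36.8 RPM in the WT oocytes and 51.2, 79.0, 59.6 and 35.8 RPM in the cKO oocytes. The ranges almost coincided, and in each genotype the oocyte that stood apart was the lowest. The log2 fold change was -0.07 (SE 0.32, 95% interval -0.79 to 0.64) with an adjusted p of 0.931 in limma. It turned to 0.12 without cKO 4, was -0.38 without WT 3, where the interval reached a change of over 2-fold (-1.08 to 0.31), and was -0.19 without both. A second transcript on the opposite strand (chr9:110531390-110533943) covers 2029 bases at the start of the Setd2 transcript (chr9:110531915-110618633) and was close to absent, at 0.450 ± 0.120 RPM in cKO and 0.459 ± 0.271 RPM in WT.

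Nsd2, whose product makes dimethylated H3K36 and whose human gene lies in the deletion of Wolf-Hirschhorn syndrome, measured 14.9, 14.9 and 9.64 RPM in WT and 10.2, 13.3, 14.0 and 11.8 RPM in cKO. The cKO values lay within the range of the WT values, with a log2 fold change of -0.07 (SE 0.26, 95% interval -0.63 to 0.49) and an adjusted p of 0.916 (limma). It was -0.05 without cKO 4, -0.26 without WT 3 and -0.24 without both. The Nsd2 transcript (chr5:33819885-33897966) overlaps by 1031 bases the transcript of Nelfa on the opposite strand, which stood at 63.1 RPM in cKO and 50.2 RPM in WT, and 60 annotated exon bases are common to both. Whether reads were counted by strand is not stated, so reads in the overlap could belong to either gene.

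Nsd3, which also has a short form without the SET domain, measured 13.3, 6.94 and 6.46 RPM in WT and 8.91, 18.4, 13.3 and 7.22 RPM in cKO. It had the highest log2 fold change of the 5, at 0.38, but its interval was wide (SE 0.36, -0.42 to 1.17) and the adjusted p was 0.611 in limma. Without cKO 4 it was 0.57, without WT 3 0.21 and without both 0.40. The genotypes overlapped, with WT 1 next to cKO 3. With isoforms merged in the table, the short and the long form (chr8:25602256-25719667) could not be told apart. It rested on 62 to 224 reads per library, the widest relative counting error of the members, whereas Nsd1 had 311 to 2463 reads.

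Ash1l, the Trithorax group member of the set, measured 12.1, 12.1 and 7.02 RPM in WT and 12.7, 14.1, 12.5 and 10.4 RPM in cKO. All cKO oocytes except cKO 4 lay above the WT oocytes, and the log2 fold change was 0.26 (SE 0.27, 95% interval -0.33 to 0.85) with an adjusted p of 0.636 (limma). The difference rested on WT 3, without which the log2 fold change was 0.03. It was 0.34 without cKO 4 and 0.10 without both. The transcript taken as Ash1l (chr3:88950030-89079373) overlaps the Dap3 transcript on the opposite strand by 15787 bases, of which 352 are exon bases of both genes, and Dap3 stood at 328 RPM in cKO and 284 RPM in WT. Reads of Dap3 counted without regard to strand would add to the Ash1l value, and how much they add was not tested.

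Across the set, WT 3 was the lowest WT oocyte for 5 of 5 members, where this held for 40.4% of all transcripts tested, and cKO 4 the lowest cKO oocyte for 4 of 5, where it held for 37.4%. Transcripts of 7 kb or longer, which include all members, deviated more than shorter ones in every oocyte except cKO 3. Their median log2 deviation from the genotype mean was -0.17 in cKO 4 (shorter transcripts -0.09) and -0.13 in WT 3 (shorter transcripts -0.05). It was 0.17 in cKO 2 (shorter 0.09) and 0.08 in WT 2 (shorter -0.01). In cKO 1 it was -0.059 (shorter -0.037) and in WT 1 0.073 (shorter 0.066). Between genotypes the 1137 long transcripts had a median log2 fold change of 0.07 and the 12565 shorter ones of 0.10. Both marker lists also had their lowest sums of each genotype in cKO 4 and WT 3. The sums were 20075 and 23325 RPM for the oocyte list and 119 and 89.9 RPM for the granulosa list. Of the granulosa list, Serpine2 stood at 44.9 RPM in cKO 4 and 43.0 RPM in WT 3, against 53.5 to 213 RPM in the others. Nr5a2, in contrast, was highest in cKO 4, at 50.8 RPM. The part of transcript length or of these markers in the member values was not tested.

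Levels were compared between members only per length, as RPM per kb of merged annotated exons. In WT the order was Nsd1 at 9.31 ± 2.80, Setd2 at 5.57 ± 2.02, Nsd2 at 0.782 ± 0.180, Ash1l at 0.701 ± 0.197 and Nsd3 at 0.538 ± 0.231 (RPM per kb, SD, n = 3). In cKO it was Setd2 at 5.24 ± 1.67, Nsd1 at 4.58 ± 1.69, Ash1l at 0.835 ± 0.103, Nsd2 at 0.734 ± 0.102 and Nsd3 at 0.725 ± 0.304 (n = 4). The members thus formed an upper pair and a lower trio with a gap between them in every oocyte. Of the 10 pairs, 6 passed an exact two-sided sign-flip permutation test over the 7 oocytes, namely Setd2 and Nsd1 each above Nsd2, Nsd3 and Ash1l in 7 of 7 (p = 0.0156, the smallest that 7 oocytes allow; adjusted over 10 pairs 0.0260). The mean log2 differences of these 6 pairs over the 7 oocytes ran from 2.76 to 3.29. For Nsd1 these means join genotypes that differed, with Nsd1 minus Nsd3 at 4.14 in WT alone and 2.65 in cKO alone. With the longest transcript as the length, Setd2 minus Nsd2 was 2.05.

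The other 4 pairs, neighbours within the pair or the trio, did not pass the test. Setd2 was above Nsd1 in 3 of 7 oocytes, all cKO, with a mean log2 difference of -0.19 ± 0.61 (SD, n = 7, exact permutation p = 0.453, adjusted 0.503). That mean joins genotypes of opposite sign, with -0.76 over the WT oocytes, where Nsd1 was above Setd2 in 3 of 3, and 0.24 over the cKO oocytes, and neither was tested alone. Nsd2 and Ash1l differed by -0.03 ± 0.26 (exact permutation p = 0.781, adjusted 0.781). Nsd3 was below Ash1l in 6 of 7 oocytes by a mean log2 difference of 0.34, with an adjusted p of 0.112 in the exact permutation test. The place of Nsd2 depended on the length used, since its merged exons measure 16.803 kb and its longest transcript 7.786 kb. With the longest transcript as the length, Nsd2 was above Ash1l by 0.73 on the log2 scale (adjusted p = 0.0223, exact permutation test) and above Nsd3 by 0.71 (adjusted p = 0.0391).

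**Figure D4:**
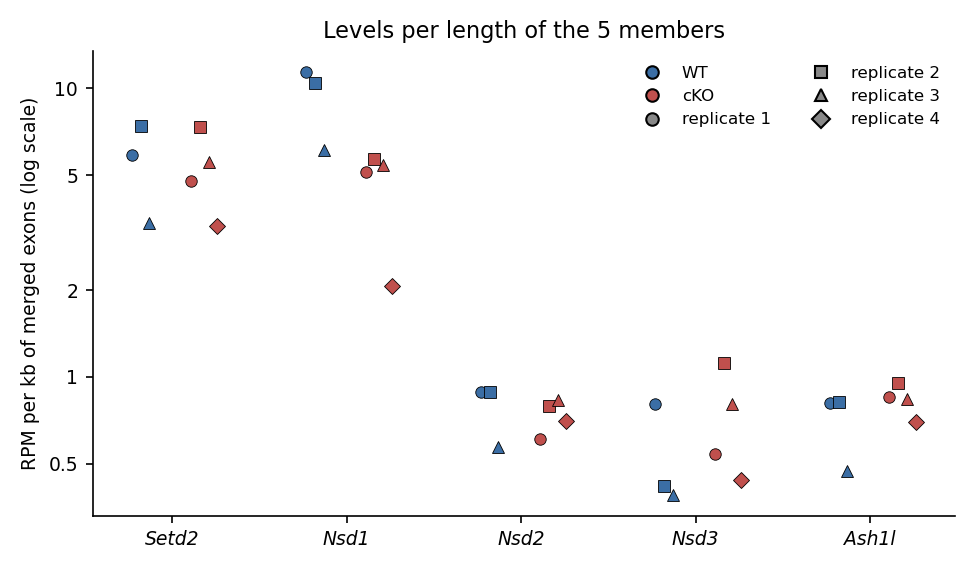
Level of each member per length (vertical axis, RPM per kb of merged exons, log scale) in single WT (blue) and cKO (red) oocytes, with marker shapes for the replicate numbers. Setd2 and Nsd1 lie between 2.07 and 11.4 RPM per kb and the other 3 members between 0.391 and 1.12 RPM per kb.

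Transcripts with the most similar profile over the 7 oocytes were listed for each member among 6787 transcripts with a mean of at least 8 RPM, by Pearson correlation of log2(RPM + 1), as a description without a test. With 7 oocytes in 2 genotypes many transcripts reach a high correlation, and 269 exceeded 0.9 with Nsd1. The closest to Nsd1 were Gm13084 (r = 0.997), Oog2 (0.992), a gene of the oocyte-expressed Oog family, and Strn (0.990). Gm13084 measured 524 RPM in cKO and 1198 RPM in WT on average, Oog2 375 and 677 RPM, and Strn 294 and 846 RPM, and none of these 3 passed the threshold (adjusted p = 0.130, 0.179 and 0.119, limma). Setd2 was followed most closely by Ddias (r = 0.996), Rnf19a (0.983) and Plag1 (0.983). Among those closest to Nsd2 were Slc4a7 (0.960) and Fam208a (0.957), and 16 transcripts exceeded 0.9. Nsd3 was most like Runx1t1 (0.986), Cxcr3 (0.985) and Zfp330 (0.971). Ash1l was most like Pafah1b2 (0.995), Pgk1-rs7 (0.991) and Abtb1 (0.990).

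Genes that work with, remove or read H3K36 methylation were taken from a list of 41 genes in 4 roles. Of these, 39 were in the table and 35 were tested, and 0 were higher and 0 lower at the threshold, while 3 had an unadjusted p under 0.05, where 21.7% of all transcripts did. The genotypes did not overlap for 3 of the 35, where 20.3% of all transcripts did not, namely Kdm4a and Msh6, with cKO below WT, and Brpf1, with cKO above WT. Of all transcripts tested 3.76% were higher and 1.95% lower. The median log2 fold change of the 35 genes was 0.10, near the 0.12 of all transcripts tested.

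Other SET genes reported to act on H3K36 (4 of 4 tested) included Setmar, with the largest fold change of this role. Setmar measured 20.9, 18.7 and 15.9 RPM in WT and 33.0, 31.4, 32.9 and 19.5 RPM in cKO. All cKO oocytes except cKO 4 lay above the WT oocytes, and the log2 fold change of 0.61 (SE 0.25) had an adjusted p of 0.191 in limma. Smyd2, a cytosolic and nuclear lysine methyltransferase, stood at 4.50 ± 1.38 RPM in cKO (SD, n = 4) and 5.57 ± 2.51 RPM in WT (SD, n = 3).

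Of the partners of SETD2 and the elongation factors, 11 of 11 were tested, and their log2 fold changes lay between -0.18 and 0.22. This was the narrowest range of the 4 roles. Leo1, a subunit of the PAF1 elongation complex, measured 68.1 ± 22.7 RPM in cKO and 75.4 ± 19.1 RPM in WT. Morf4l1, which encodes the chromodomain protein MRG15 that binds methylated H3K36 and activates ASH1L, measured 91.8 ± 18.0 and 77.7 ± 7.84 RPM (SD, n = 4 and 3).

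Among H3K36 demethylases, 7 of 8 were in the table and 5 were tested. Kdm2b, a CpG island binding demethylase, was at 207 ± 23.1 RPM in cKO and 171 ± 36.4 RPM in WT. Its relative Kdm2a was at 7.31 ± 3.18 and 4.38 ± 1.41 RPM. Kdm4b, which acts on H3K9 and H3K36, had the largest fold change of the role, -0.63 on the log2 scale with a wide interval (-1.64 to 0.38), at 1.27 ± 0.940 RPM in cKO and 2.57 ± 1.72 RPM in WT. None of these 3 passed the threshold (adjusted p 0.490 for Kdm2b, 0.349 for Kdm2a and 0.482 for Kdm4b, limma).

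The readers, proteins that bind methylated H3K36, had 15 of 18 genes tested, with 7 log2 fold changes above 0, 8 below and a median of -0.23. With the 10 tested readers named by the table alone the median was -0.10. Psip1, which encodes the PWWP domain protein LEDGF, measured 115, 151 and 92.6 RPM in WT and 70.4, 84.4, 93.9 and 48.8 RPM in cKO. The genotypes overlapped, meeting at cKO 3 and WT 3, and the log2 fold change of -0.69 (SE 0.27) had an adjusted p of 0.164 in limma. Msh6, a mismatch repair protein with a PWWP domain, named after its values were seen, lay at 34.0 to 44.7 RPM in cKO and 48.7 to 79.9 RPM in WT without overlap, with a log2 fold change of -0.59 (adjusted p = 0.166). Dnmt3a, the DNA methyltransferase that reads H3K36 methylation through its PWWP domain, measured 69.4 ± 13.0 RPM in cKO and 90.9 ± 16.6 RPM in WT (SD, n = 4 and 3), with a log2 fold change of -0.39 (adjusted p = 0.366, limma).

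**Figure D5:**
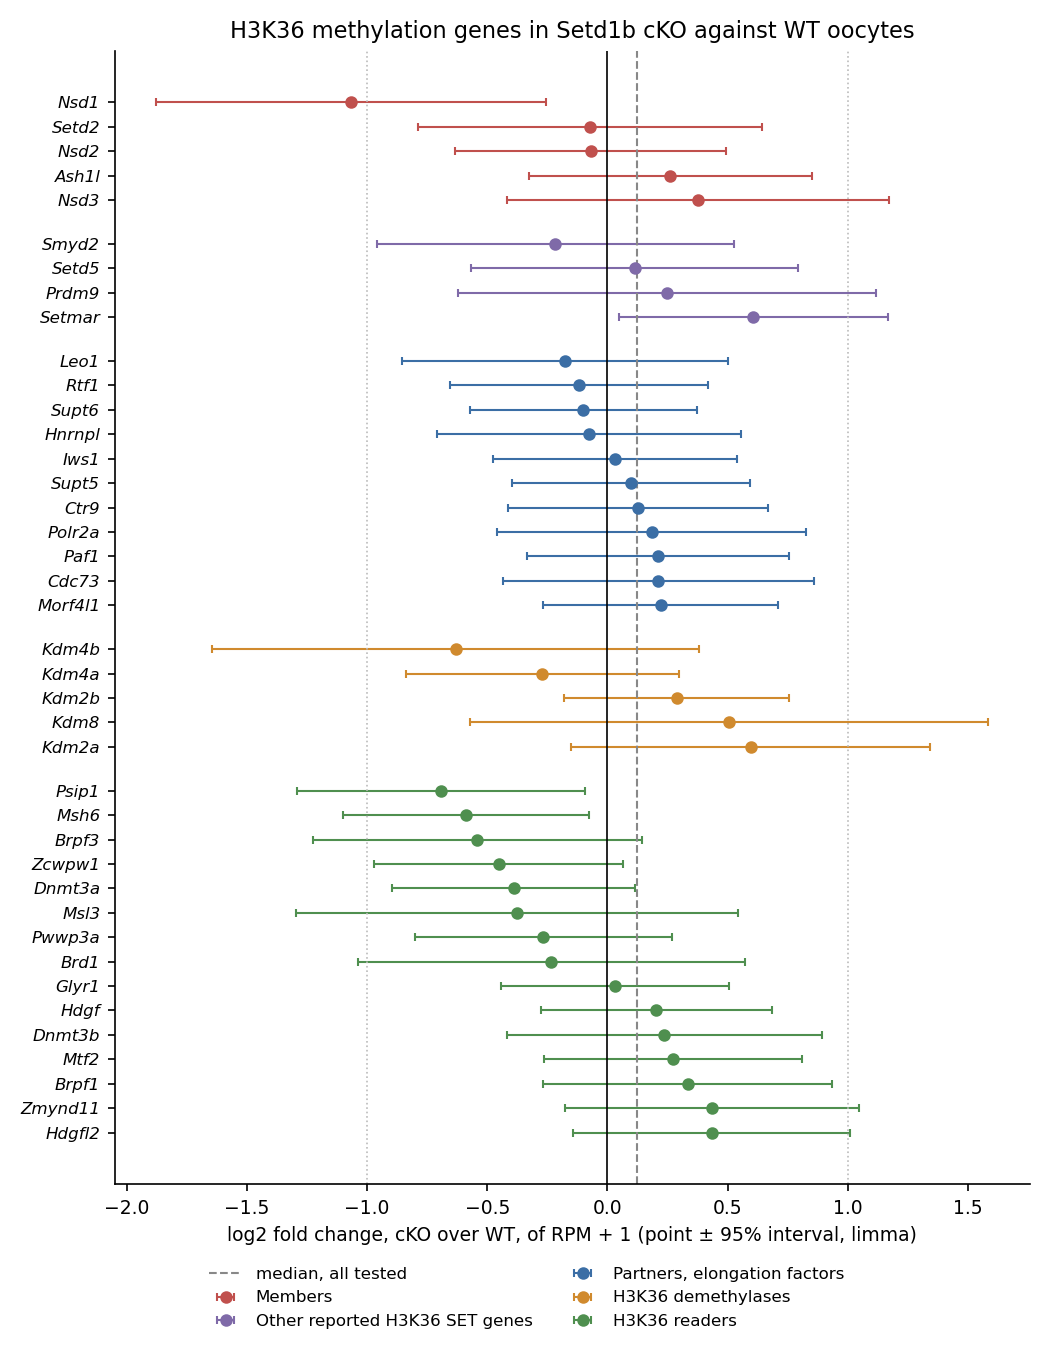
Log2 fold change, cKO over WT, of RPM + 1 (horizontal axis, points with 95% intervals from limma) for the 5 members and the 35 tested genes of the 4 roles (rows, coloured by role). The dashed line is the median of all transcripts tested, 0.12, and the dotted lines mark a 2-fold change. Nsd1 at -1.07 is the only point beyond a dotted line, and none of these genes passed the threshold.

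For comparison, SET methyltransferases of other lysines were set beside the members. Of 16 such genes 13 were tested, of which 1 was higher and 0 were lower, beside 3.76% and 1.95% of all transcripts tested. The genotypes did not overlap for 6 of the 13, where 20.3% of all transcripts had no overlap, and for 5 of these every cKO oocyte lay below every WT oocyte, where 7.14% did. The 5 were Setd1a (log2 fold change -0.64), Suv39h1 (-0.46), Kmt2b (-0.38), Ehmt1 (-0.35) and Kmt5a (-0.12), with adjusted p from 0.180 to 0.803 (limma), named after their values were seen. The pattern of Nsd1 was thus also present in SET genes of other lysines. The called gene was Kmt5b, an H4K20 methyltransferase, at 2.59, 4.47 and 2.43 RPM in WT and 8.71, 8.40, 6.27 and 7.81 RPM in cKO. Every cKO oocyte was above every WT oocyte, and the log2 fold change was 1.10 (SE 0.28, adjusted p = 0.0446, limma). The call held in 10 of 24 alternatives and in none of the fits that left out 1 library, with adjusted p from 0.0316 to 0.160. Ezh2, the H3K27 methyltransferase, was at 206 ± 19.5 RPM in cKO and 184 ± 32.8 RPM in WT, and Kmt2d, an H3K4 methyltransferase, at 191 ± 55.5 and 215 ± 30.7 RPM (SD, n = 4 and 3).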

How the data were processed

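The authors made cDNA from single oocytes with the SMARTer Ultra Low kit, sequenced single reads, removed adaptors with trim galore, used Hisat for mapping to GRCm38 and counted them in SeqMonk over oocyte transcripts with merged isoforms. Use of strand is not stated. The submitters' processing notes also name bcl2fastq 1.8.4 and featureCounts 1.4.4 without a role. In the deposited table each value is a log2 RPM on the mapped reads of its library, with 0.9 read in place of 0 reads. In each of the 7 libraries 100% of the values above that floor gave whole reads (relative tolerance 1e-05).

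Values were returned to RPM and compared as log2(RPM + 1) with lmFit and eBayes with a trend (limma 3.58.1, R 4.3.3), without covariates, over 18179 transcripts that reached 1 RPM in 3 or more libraries. The study used a model for counts, so voom on the recovered reads was an alternative. A call needed a Benjamini-Hochberg p below 0.05 and a difference over 2-fold. The fold change on this scale understates that of low genes. Other steps used Python 3.11.15, numpy 2.4.6, pandas 2.3.3, scipy 1.17.1 and matplotlib 3.10.9, and the fit was tested on simulated data.

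Genes not named on their own strand were matched to GENCODE M21 spans with an overlap of at least 0.5 of the union. Named genes were all members and, of each role, those called, the largest fold change and the 2 highest means. For each member the 3 transcripts with the highest correlation were also named, of which 1 is not reported here. Other genes named in the text were chosen after their values were seen. Members and lists were chosen with earlier results of these data known. Alternatives covered pseudocount, filter, scaling, variance model, weights, block, threshold and each library left out. Floors and read ranges cover counting error only. Two-sided tests were used throughout.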

Additional observations from a re-analysis of the deposited data

Results flagged for a closer look

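In the 4 cKO oocytes the gap between 1 oocyte and its nearest neighbour was taken as a share of the range, and 4 of 17 genes examined had a gap above the critical value of 0.829. Chance alone gives such a gap in about 1 of 20 groups, and the genes share their oocytes. The oocyte was cKO 4 each time. Nsd1 had a gap of 0.845, with cKO 4 the lowest at 36.2 RPM and the others at 89.7 to 99.5 RPM. The gap of Setmar was 0.883, with 19.5 RPM in cKO 4 and 31.4 to 33.0 RPM in the others. Kmt2d had a gap of 0.853, with 108 RPM against 211 to 229 RPM. For Kdm2b the gap was 0.920 in the other direction, with cKO 4 the highest at 242 RPM and the others at 193 to 197 RPM. The WT group of 3 was not examined in this way.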

How the results depend on the processing

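Of the members, Nsd1 was called in 2 of 24 alternatives, with library quality weights (-1.002) and with cKO 4 and WT 3 left out (-1.001, added after the data were seen), which took the count of members called lower from 0 to 1. The other members were called in none. Leaving out 1 library at a time gave Nsd1 log2 fold changes of -1.34 to -0.73, Setd2 -0.38 to 0.17, Nsd2 -0.26 to 0.028, Nsd3 0.16 to 0.67 and Ash1l 0.03 to 0.38. Setd2 also changed sign with scaling to reads within transcripts (0.0060) and with the replicate block (0.12), and Nsd2 with the former (0.0042). The cause was not tested. Over all transcripts, 683 were called higher and 355 lower. The count higher was 315 with a pseudocount of 5 RPM, 396 without a filter, 428 with quantile normalisation, 443 with voom, 1197 with quality weights (lower 554), 1029 with both oocytes left out (lower 498) and 1042 at an adjusted p under 0.1. It ranged from 171 to 850 with 1 library left out (lower 109 to 437). Scaling moved the split to 458 higher and 531 lower with median centring, 428 and 442 with quantile normalisation, 510 and 487 with median-of-ratios scaling and 836 and 310 with reads within transcripts, and the median of all transcripts, 0.12, became -0.03, 0.01, 0.00 and 0.20, so every direction is relative to the scaling used. The pathway counts were 0 higher and 0 lower in all 25 alternatives, of which 1, naming by the table alone, was added later.

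Per length, Nsd2 minus Ash1l changed sign with the longest transcript (0.73), in WT alone (0.17) and over the fits without 1 library (-0.085 to 0.043), Nsd3 minus Ash1l with the longest transcript (0.015), and Setd2 minus Nsd1 in cKO alone (0.24). With 1 library left out, the 6 pairs that passed became 0 to 8, since 6 oocytes give an adjusted p of 0.0521 unless more pairs reach the smallest p. The direction of those 6 pairs could not change in those fits, as each held in 7 of 7 oocytes. Summing the rows of a gene gave no other value, as each member has 1 transcript on its strand.

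The numbers of the replicates did not pair the oocytes (correlations of same-numbered deviations 0.19, 0.29 and -0.13, and cKO 2 was closest to WT 1). With the replicate block, in which cKO 4 has no partner, Nsd1 was at -0.73 (adjusted p = 0.0620, limma), and 924 transcripts were called higher and 479 lower.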
